A study of Mus musculus with 6 samples.

Results

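miR-155 was followed in exosomes released by RAW 264.7 cells, a mouse macrophage line, through both arms of its hairpin, mmu-miR-155-5p and mmu-miR-155-3p (below without the species prefix mmu). They are 2 of the 1881 mouse miRNAs on a one-colour Agilent microarray, chosen by name in the array files, each read by 2 probes printed at 15 spots. The LPS group holds 3 samples of exosomes from cells incubated with 2 µg/mL LPS (lipopolysaccharide, an outer-membrane component of Gram-negative bacteria) in complete medium, with supernatant taken after 72 h. The control group holds 3 samples of exosomes from normal RAW 264.7 cells, for which the labels give no agent and no incubation time. Both groups share the cell line and isolation from supernatant by size-exclusion chromatography. Nothing in the labels says whether the 3 samples of a group came from separate cultures, so p-values here measure the spread among the deposited samples, and that spread may be technical.

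miR-155 is cut from the non-coding host transcript Mir155hg (also called Bic), which macrophages and lymphocytes switch on through NF-κB and AP-1 when Toll-like receptors meet their ligands. The 5p arm is the usual guide strand: its seed, bases 2 to 8, pairs with target mRNAs such as those of Inpp5d (SHIP1, a phosphatase that restrains PI3K signalling) and Socs1 (a suppressor of cytokine signalling). The 3p arm is the less abundant strand of the duplex in most cells, and exosomes are small vesicles that carry a selection of a cell's miRNAs.

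The mature arms are shown because the array probes tell them apart by these letters, with capitals marking the seed (RefSeq, GRCm38.p6, 5′ to 3′):
miR-155-5p: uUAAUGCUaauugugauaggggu
miR-155-3p: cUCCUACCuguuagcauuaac
The 5p arm is 23 bases long and lies at chr16:84714143-84714165 on the plus strand, and the 3p arm is 21 bases long and lies at chr16:84714182-84714202 on the same strand. Both fall inside the lncRNA gene Mir155hg (chr16:84713023-84715245). Each seed occurred in 1 of the 1738 mature mouse miRNAs of the RefSeq table, so miR-155 has no seed family there. In the 65-base hairpin (chr16:84714140-84714204), with both arms in capitals, 16 bases separate the arms:
pre-miR-155: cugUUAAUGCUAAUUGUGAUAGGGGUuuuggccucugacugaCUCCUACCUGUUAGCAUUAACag

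The probes are shown because the results below differ between them; each is complementary to the 3′ end of its arm, and capitals mark the base that only the longer probe of a pair has:
A_54_P2337 (5p, longer): acccctatcacaattagC
A_54_P2336 (5p, shorter): acccctatcacaattag
A_54_P00005381 (3p, longer): gttaatgctaacaggtagG
A_54_P00005380 (3p, shorter): gttaatgctaacaggtag
The longer 5p probe pairs with bases 6 to 23 of miR-155-5p, and the shorter 5p probe with bases 7 to 23. The longer 3p probe pairs with bases 3 to 21 of miR-155-3p, and the shorter 3p probe with bases 4 to 21. In the files' own build, mm9, the 5p probes are placed at chr16:84714394-84714410 (longer) and chr16:84714395-84714410 (shorter), and the 3p probes at chr16:84714430-84714447 (longer) and chr16:84714431-84714447 (shorter). These spans are 1 base shorter than the probes.

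Exosomal miR-155-5p was higher in all 3 LPS samples, by 18.2-fold after scaling, and this was the largest increase among the 198 miRNAs detected on all 6 arrays. miR-155-3p was detected on no array. The arrays themselves differed between the groups, which bears on every fold change here. LPS arrays detected 428 ± 17.1 miRNAs, against 219 ± 8.14 on control arrays (SD, n = 3 each; 1.96 times as many). The 75th percentile of processed signal (intensity after the authors' background subtraction) over miRNAs detected on all arrays was 2229 ± 180 on LPS arrays and 477 ± 41.0 on control arrays (4.67 times as high). Signals of 4 spiked-in RNAs averaged 2377 ± 181 on LPS arrays and 2707 ± 83.9 on control arrays (geometric mean over the RNAs, a ratio of 0.878). For each of these 3 measures the groups did not overlap (two-sided exact permutation p = 0.1, the smallest that 3 against 3 allows). Their part in the miR-155 result was not tested. Fewer exosomes and less of a miRNA per exosome cannot be told apart in such samples; the labels give 0.5 µg of RNA for labelling in both groups.

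The longer 5p probe averaged 2895, 3458 and 3422 processed signal units on LPS arrays 1 to 3, against 38.2, 39.0 and 37.7 on control arrays 1 to 3. Its group means were 3258 ± 315 with LPS and 38.3 ± 0.656 in controls (SD, n = 3 each), 85.1-fold before any scaling (exact permutation p = 0.1). Every LPS spot was brighter than every control spot: the 44 LPS spots used lay between 2485 and 3743, and the 44 control spots between 24.2 and 56.1. All 44 LPS spots were well above background by the scanner software's call, against 31 of 44 control spots (10, 12 and 9 on the control arrays). Spots within 1 array varied by 2.86 to 8.70% with LPS and by 13.0 to 21.7% in controls (coefficient of variation). No negative-control spot, of 971, 989 and 920 on the control arrays, reached the probe's mean there, and no spot of the probe was saturated. The dim control side was therefore measured, but with a larger relative error than the LPS side.

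The shorter 5p probe averaged 961, 1202 and 1169 units on LPS arrays, against 20.0, 17.9 and 18.7 units on control arrays. All 42 of its LPS spots used were well above background (703 to 1293), and none of its 42 control spots was (8.46 to 27.1). On the control arrays 31.4%, 22.9% and 12.5% of the negative-control spots were brighter than its mean. The group means of 1111 ± 131 with LPS and 18.9 ± 1.07 in controls stood 58.9-fold apart before scaling, without overlap. Because the control side was not well above background, the scaled difference is a bound: at least 7.34-fold higher with LPS, from a log2 mean of 8.998 over the LPS arrays against 6.12, the mean lowest signal well above background on the control arrays (measured control mean 5.35). In the plot of single spots, both 5p probes separate the groups completely.

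**Figure D1:**
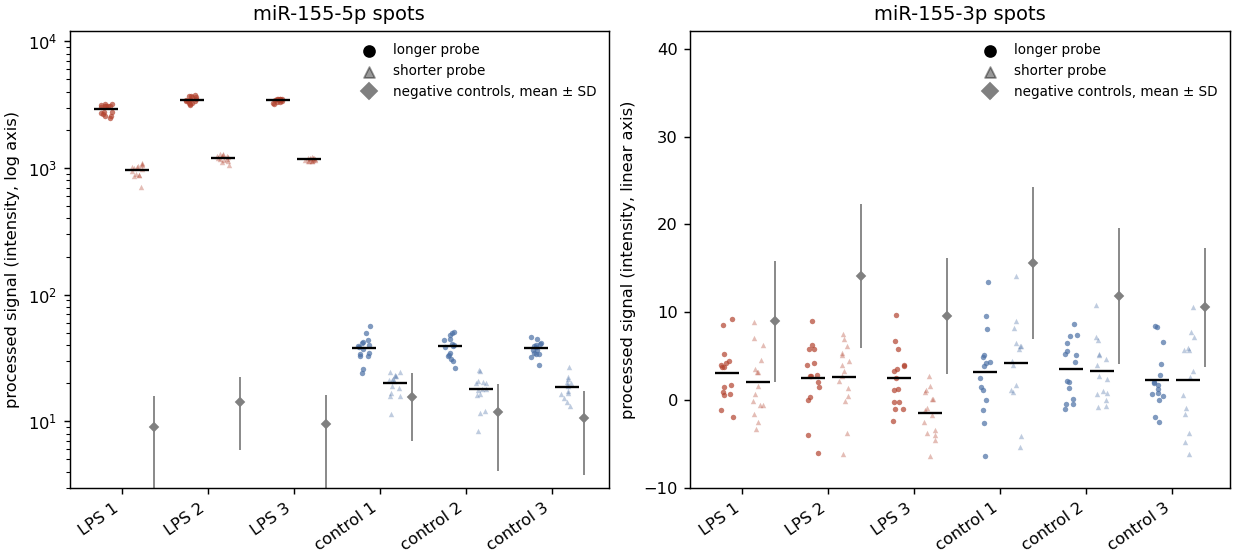
Processed signal (intensity units) of every used spot of the miR-155-5p probes (left, log axis) and the miR-155-3p probes (right, linear axis) on the 3 LPS and 3 control arrays; circles are the longer and triangles the shorter probe, black bars are array means, and diamonds with bars are the mean ± SD of negative-control spots (lower bars of some LPS arrays run off the log axis). The longer 5p probe sits between 2485 and 3743 on LPS arrays, all above the control spots at 24.2 to 56.1, whereas the 3p spots lie between −6.44 and 14.1 units over both groups, with every probe mean below that array's negative-control mean.

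For the test across miRNAs, each miRNA took its brightest probe, signal was scaled to the array's 75th percentile across miRNAs found on every array, and log2 was taken. On this scale miR-155-5p had 10.52, 10.57 and 10.57 in LPS samples, against 6.51, 6.30 and 6.30 in control samples. The means were 10.55 ± 0.025 with LPS and 6.37 ± 0.12 in controls (SD, n = 3 each), and the groups did not overlap. The log2 difference was 4.18 (SE 0.07), which is 18.2-fold (limma, Benjamini-Hochberg adjusted p = 1.72e-08 over 412 tested miRNAs). Of the 412 miRNAs tested, 270 (65.5%) were higher with LPS and 110 (26.7%) lower, 92.2% in all. Being called higher was therefore common on these arrays, and the call alone says little about miR-155-5p.

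Among the 198 miRNAs present on every array the median log2 difference was 0.77, and 115 of them (58.1%) were called higher. miR-155-5p stood 3.42 above that median and ranked first among the 198. In the order of changes it was followed by miR-709 at 3.83 (SE 0.07), miR-3473g at 3.57 (SE 0.10) and miR-494-3p at 3.14 (SE 0.08); all 3 were called higher (limma adjusted p at most 1.55e-07). The difference between miR-155-5p and these neighbours was read without a test. Among all 412 tested miRNAs miR-155-5p held rank 6: miR-202-3p, miR-6907-5p, miR-210-3p (a hypoxia-induced miRNA), miR-6360 and miR-1906, named after their values were seen, had larger fitted values. None of these 5 was well above background on a control array, so their folds are bounds, at least 13.4-fold for miR-210-3p and at least 2.65- to 5.19-fold for the others.

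**Figure D2:**
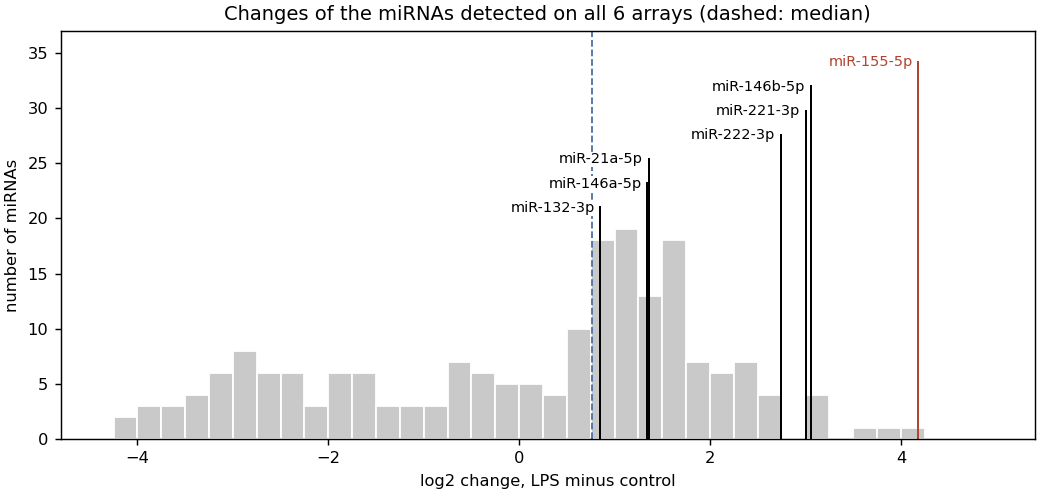
Histogram of the log2 change (LPS minus control, limma, scaled signal) of the 198 miRNAs detected on all 6 arrays; vertical lines mark miR-155-5p and the 6 other Toll-like receptor-induced guide strands in that set, and the dashed line is the median, 0.77. miR-155-5p lies at the right edge at 4.18, and miR-146b-5p, miR-221-3p and miR-222-3p lie between 2.74 and 3.05.

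The fold of miR-155-5p depended on how the arrays were brought to a common scale. With no scaling its log2 difference was 6.41 (84.8-fold), and with scaling to the spiked-in RNAs 6.60 (96.8-fold). The percentile over all miRNAs gave 5.38 (41.5-fold), median centring 3.87 (14.6-fold) and quantile normalization 3.74 (13.4-fold). Another background model, normexp with an offset of 50, gave the smallest value, 2.87 (7.31-fold). That offset exceeds the control mean of the longer 5p probe, 38.3 units of processed signal. An added constant shrinks a fold change more where the signal is dim, and its part in this value was not tested. Subtracting each array's mean negative-control signal, an alternative chosen after seeing the data, gave 4.73 (26.5-fold). The other miRNAs shifted with miR-155-5p. Over the 5 alternatives of scaling, the median of the 198 miRNAs detected on all arrays moved between 0.32 (quantile normalization) and 3.18 (spike-in scaling). miR-155-5p stood 3.42 above that median under all 5 of these scalings. Apart from quantile normalization, these scalings multiply each array by 1 factor. Such a factor moves miR-155-5p and the median equally, so the constant distance is arithmetic and no sign of stability. Under normexp the median was 0.11 and miR-155-5p stood 2.76 above it. Over the 28 ways of computing the change other than the software's gene total, the value stayed between 2.87 and 6.60 with adjusted p from 2.05e-20 to 0.000778, and miR-155-5p held rank 1 among the 198 in 27 of the 28 and rank 4 under normexp.

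**Figure D3:**
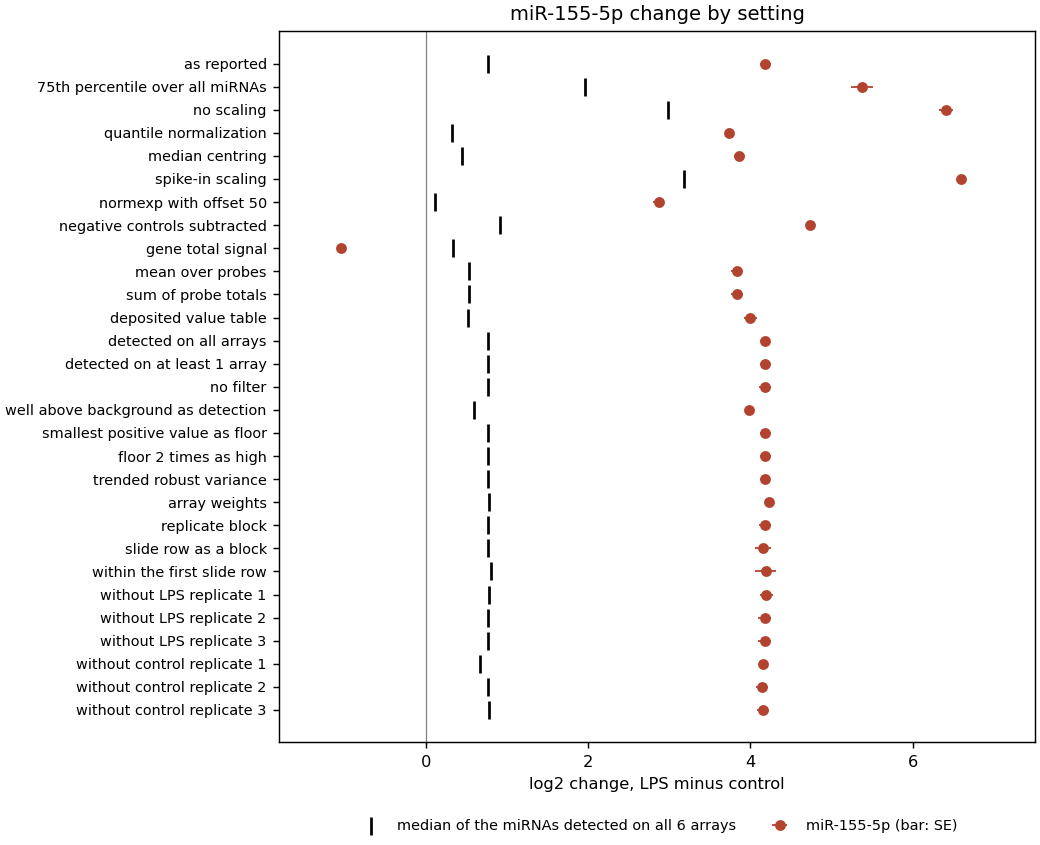
Log2 change of miR-155-5p (LPS minus control, red points, bars are the SE of the limma fit) under each way of processing, with the median change of the miRNAs detected on all 6 arrays as black ticks. All points lie between 2.87 and 6.60 except the gene total signal, at −1.04. The distance to the median is 3.42 under most scalings, because a common factor per array cannot change it.

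The gene total, a per-miRNA sum that the scanner software also writes, put miR-155-5p on the other side, but only after scaling. Its gene total was 1106, 1365 and 1323 on LPS arrays, against 462, 542 and 521 on control arrays. Before scaling it was thus 2.49-fold higher with LPS, without overlap. On the LPS arrays this equalled the sum of its probe totals. On the control arrays the probe totals summed to 12.3, 12.1 and 12.0, so the gene total was 37.4, 45.0 and 43.6 times that sum. There the shorter probe's total was 2.77, 2.64 and 2.52 times its own error, under 3 on every control array, and the longer probe's was 4.81, 5.12 and 4.64 times. The effective feature size, a fraction the software uses for its totals, was 0.812, 0.829 and 0.815 on LPS arrays and 0.6 on each control array, and its part in this result was not tested. After scaling, the gene totals averaged 558 with LPS and 1146 in controls, and the log2 difference reversed to −1.04 (SE 0.03, limma adjusted p = 1.64e-06).

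The same step held for other miRNAs. Where every probe total of a detected miRNA exceeded 3 errors, the gene total lay within 1% of the probe sum in 928 of 928 miRNA and array pairs with LPS and in 431 of 431 in controls. Where some probe total was under 3 errors, it exceeded 2 times the sum in 306 of 356 pairs with LPS (86.0%) and in 171 of 225 in controls (76%). With the sum of probe totals in place of the gene total the miR-155-5p difference was 3.83, and the authors' deposited value table gave 3.998 (SE 0.08, limma adjusted p = 9.22e-08; 69.9% of miRNAs higher in that fit). In that table miR-155-5p had 10.19, 10.17 and 10.15 in LPS samples, against 6.35, 6.12 and 6.06 in control samples.

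**Figure D4:**
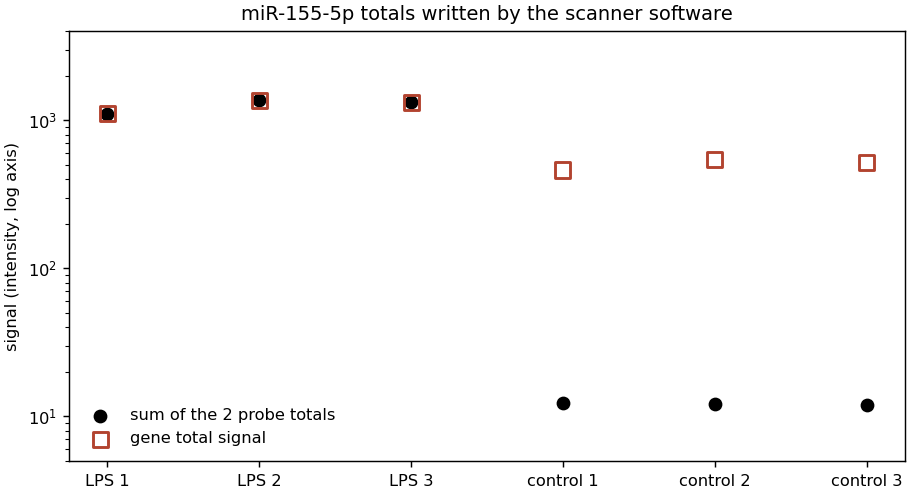
Gene total signal (open squares) and sum of the probe totals (filled circles) of miR-155-5p per array, in intensity units on a log axis. The 2 quantities coincide on the LPS arrays and part on the control arrays, where the gene total was 462 to 542 and the probe sum 12.0 to 12.3.

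Whether the 5p probes differed from each other in the size of the change is not settled by these arrays, since the control side of the shorter probe was at background level. The longer over the shorter probe was 3.01, 2.88 and 2.93 on LPS arrays, against 1.91, 2.18 and 2.01 on control arrays (means 2.94 ± 0.069 with LPS and 2.04 ± 0.136 in controls; log2 difference 0.53, exact permutation p = 0.1). The measured ratio was higher on every LPS array than on any control array. The same separation in this direction was found for 28% of the 189 miRNAs with such a pair of probes, over which the median log2 difference was −0.02 with quartiles of −0.18 and 0.15. With the negative controls subtracted, chosen after seeing the data, the ratios were 3.03, 2.90 and 2.94 with LPS and 5.14, 4.49 and 3.32 in controls, so the direction of this difference turned. Fitted one by one over 955 probes, the longer probe changed by 4.18 (SE 0.07, limma adjusted p = 7.92e-07) and the shorter by 3.65 (SE 0.12, limma adjusted p = 6.12e-06), where 53.5% of all probes were higher; the fitted value of the shorter probe is subject to the bound given above.

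miR-155-3p stayed at background in both groups. Its shorter probe averaged 2.00, 2.61 and −1.47 units on LPS arrays, against 4.17, 3.31 and 2.27 on control arrays. Its longer probe averaged 3.001, 2.47 and 2.44 units on LPS arrays, against 3.21, 3.56 and 2.29 on control arrays. No spot of either probe was well above background on any array, and 80.8 to 96.7% of negative-control spots were brighter than the probe means. Averaged over all its spots it had 2.50, 2.54 and 0.485 units with LPS and 3.67, 3.44 and 2.28 units in controls, with overlapping groups (two-sided exact permutation p = 0.3). A difference between the groups was not detectable at this brightness, which does not show that the arm was absent. It did not pass the detection filter, was not tested across miRNAs, and no ratio of the arms was formed.

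In the authors' deposited value table miR-155-3p had 2.74, 2.75 and 2.75 in LPS samples and 2.84, 2.81 and 2.78 in control samples on the log2 scale. The LPS values were all below the control values, by 0.061 on average. The same held for 53% of the 1417 miRNAs detected on no array, whose median difference was −0.037, so this separation was common among undetected miRNAs. Its gene total equalled its own error on every array, 2.46, 3.11 and 3.01 with LPS and 2.08, 1.96 and 2.16 in controls, and holds no signal of the arm.

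Other miRNAs known to be induced through Toll-like receptors were set beside miR-155. Of 13 guide strands, 10 were tested and 10 were called higher with LPS, against 65.5% of all tested miRNAs. Only 6 of them were detected on all 6 arrays. The other 4 passed the filter through the LPS arrays alone, a step that favours higher values with LPS without requiring them. None of these 4 was well above background on a control array, so their fitted log2 differences are not measured sizes. The fitted median of the 10, 2.00 against 0.85 over all 412, therefore gives no measured effect of the list. The 6 guides alone carry a measured median log2 difference, 2.05, against 0.77 among the 198. Of the 13 guides, 6 form 3 pairs with the same seed; they are shown, with the seed in capitals, because members of a pair can be compared and none shares the seed of miR-155-5p (RefSeq, GRCm38.p6):
miR-146a-5p: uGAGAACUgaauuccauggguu
miR-146b-5p: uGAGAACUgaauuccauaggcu
miR-221-3p: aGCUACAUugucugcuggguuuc
miR-222-3p: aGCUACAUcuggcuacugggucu
miR-132-3p: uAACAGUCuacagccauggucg
miR-212-3p: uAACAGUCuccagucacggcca
The last of these, miR-212-3p, was detected with LPS only.

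miR-146b-5p, which like miR-146a-5p targets Irak1 and Traf6, signalling proteins downstream of the receptors, had 9.94, 9.96 and 9.89 in LPS samples on the scaled log2 scale, against 6.97, 6.72 and 6.95 in control samples, a difference of 3.05 (SE 0.08). miR-146a-5p had 13.18, 13.37 and 13.36 with LPS and 11.97, 11.98 and 11.94 in controls, a difference of 1.34 (SE 0.06). Neither miRNA's groups overlapped, and the members of this seed pair changed by unequal amounts. miR-221-3p and miR-222-3p, which are cut from neighbouring hairpins and target the cell-cycle inhibitor Cdkn1b, changed by 3.003 (SE 0.05) and 2.74 (SE 0.08). miR-21a-5p, an abundant miRNA that targets Pdcd4, changed by 1.36 (SE 0.05), and miR-132-3p, a CREB-responsive miRNA, by 0.85 (SE 0.04). The adjusted p of these 6 was at most 2.27e-06 (limma).

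The 4 guides detected with LPS only were lower in signal. let-7e-5p was at least 1.81-fold and miR-125a-5p at least 1.34-fold higher with LPS; these are neighbours in 1 cluster with miR-99b-5p. miR-99b-5p and miR-212-3p had no bound above 1. The other 3 guides, miR-9-5p, miR-147-3p and miR-187-3p, were detected on no array. Among the 13 opposite arms of the same hairpins, none was detected on a control array, 8 were detected on no array, and 5 were detected on all 3 LPS arrays (miR-21a-3p, miR-9-3p, miR-222-5p, miR-125a-3p and miR-99b-3p), none with a bound above 1. These 5 were called higher, against 65.5% of all 412 tested miRNAs, but passed the filter only through the LPS arrays. Among them, miR-99b-3p was well above background on no array of either group.

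A ratio within an array does not depend on scaling between arrays, but it does depend on the background correction and on the summary of probes. With the processed signal, miR-155-5p relative to each of the 6 guides detected on all arrays was higher on every LPS array than on any control array. The ratio was higher by 3.33 on the log2 scale against miR-132-3p (10.1-fold), by 2.84 against miR-146a-5p (7.16-fold) and by 2.83 against miR-21a-5p (7.09-fold). It differed less against the other 3, by 1.44 for miR-222-3p (2.71-fold), 1.18 for miR-221-3p (2.26-fold) and 1.13 for miR-146b-5p (2.19-fold). The median over the 6 ratios was 2.13. Each had an exact permutation p of 0.1 (adjusted p = 0.1 over the 6 ratios), the smallest the design allows, so none passed 0.05. Against all 197 other miRNAs detected on all arrays, the ratio was higher on every LPS array than on any control array in 197 cases (100%), so this separation was not particular to the 6 guides. This count was also 197 in the deposited value table and with the negative controls subtracted. It was 196 with the mean over probes or the sum of probe totals, 193 with normexp and 64 with the gene total. With normexp the ratio over miR-221-3p was level between the groups (a log2 difference of 0.0055, overlapping, exact permutation p = 1), and the ratios over miR-146a-5p, miR-21a-5p and miR-132-3p differed by 1.43, 1.40 and 2.35, with a median over the 6 of 1.26. In the deposited value table the differences over miR-146a-5p and miR-21a-5p were 2.21 and 2.23, and with the gene total 5 of the 6 reversed.

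**Figure D5:**
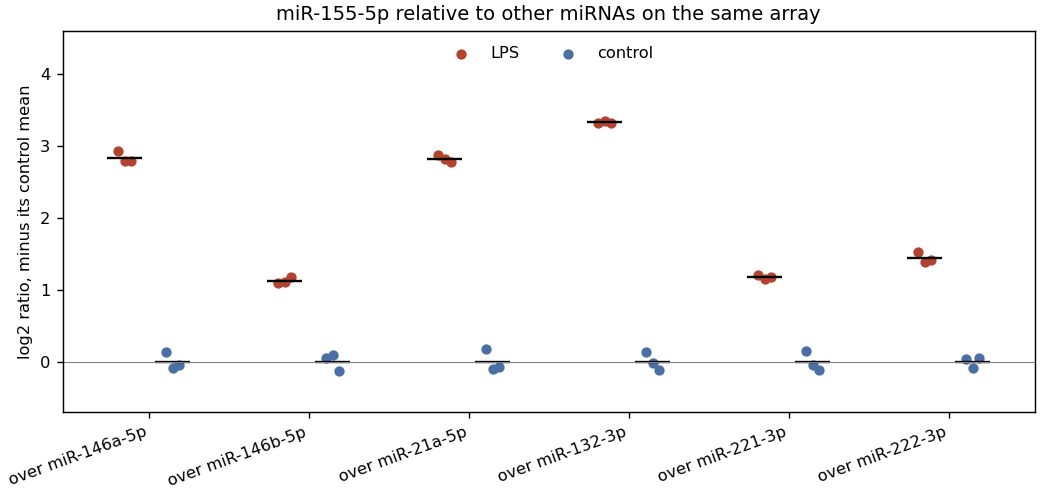
Log2 ratio of miR-155-5p to each of 6 other Toll-like receptor-induced guide strands on the same array, minus the mean ratio of the control arrays, for the 3 LPS arrays (red) and the 3 control arrays (blue); bars are group means. On this scale of processed signal the LPS points lie above the control points for every miRNA, with means from 1.13 for miR-146b-5p to 3.33 for miR-132-3p.

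The miRNAs whose pattern over the 6 arrays was most like that of miR-155-5p, by the root mean square difference of centred log2 values, were miR-709 (0.20), miR-3473g (0.35), miR-494-3p (0.52), miR-146b-5p (0.57) and miR-6931-5p (0.58). This likeness is a description over 6 arrays of 2 groups and measures mainly how alike the sizes of the changes are. miR-709, the nearest, had 13.60, 13.36 and 13.40 in LPS samples, against 9.65, 9.59 and 9.60 in control samples. The mature sequences of the next pair show no seed in common with miR-155-5p (RefSeq, GRCm38.p6):
miR-3473g: cAAAAGUGaggcuggggaga
miR-494-3p: uGAAACAUacacgggaaaccuc

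Markers of blood cells were present in both groups, as in the labelled macrophage line. All 4 on the list were tested and called higher with LPS, against 65.5% of all 412 tested miRNAs, and 1 of the 4 passed the filter through the LPS arrays alone. miR-223-3p, a myeloid miRNA, was higher by 1.08, miR-342-3p by 0.90 and miR-142a-3p by 0.68 (well above background on 2 of 3 control arrays), while miR-142a-5p, detected with LPS only, was at least 1.28-fold higher (limma adjusted p at most 0.0024 for the 4). Their summed scaled signal was 1244 to 1316 in LPS samples and 649 to 691 in control samples, a smaller factor than that of miR-155-5p. The 3 markers detected on all arrays had a median log2 difference of 0.90, against 0.77 over the 198 miRNAs detected there. A move of this size was therefore common on these arrays. Of 5 miRNAs on the serum and erythroid list only the widely expressed miR-16-5p was detected (1.33 higher, log2). miR-451a, miR-486a-5p, miR-144-3p and miR-122-5p were detected on no array. The summed level of that list was 3897 to 4578 with LPS and 1747 to 1825 in controls. Nearly all of it came from miR-16-5p (mean log2 12.07 with LPS and 10.75 in controls), so it gives no level for the undetected members. For lymphocytes 1 of 2 (miR-181a-5p) and for epithelium 1 of 3 (miR-200c-3p) were detected, on LPS arrays only and with no bound above 1, and none of 3 muscle or 2 neural miRNAs was detected. The part of these lists in the miR-155-5p difference was not tested.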

How the data were processed

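Exosomal RNA of 3 LPS and 3 control samples was read on one-colour miRNA arrays. The deposited scanner files hold intensity on a linear scale; per the file headers, background was subtracted in Agilent Feature Extraction; the submitters' processing notes name version 9.1, and the headers another version. Per the labels' protocols 0.5 µg of RNA went into a cRNA labelling kit. A second table deposited by the authors holds log2 values; their normalization is not stated in the labels or headers; it was used as an alternative. Files give probe positions on mm9; sequences are RefSeq's on GRCm38.p6, with 39 of 50 named miRNAs matched. No per-sample column of these files was left out for want of a sample.

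Processed signal was averaged over non-outlier spots of a probe. A miRNA took its brightest probe over the 6 arrays. Arrays were scaled to the 75th percentile of the 198 miRNAs found on every array, floored at 9.89 (log2 3.31, the array-wise lowest scaled value of detected miRNAs, as a median) and log2-transformed. A miRNA was tested when detected on 3 of 3 arrays of a group (412), with limma 3.58.1 in R 4.3.3 and Benjamini-Hochberg adjustment at 0.05. A miRNA or probe well above background on no array of 1 group is given as a bound: the bright group's mean against, per array, the higher of the dim signal and the lowest signal well above background. Single measures were compared by two-sided exact permutation tests. The number of arrays limits the precision.

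The members and lists were chosen with earlier results of these data known. Named were both arms, the Toll-like receptor list (13 guides and their 13 other arms) and the 3 miRNAs next below miR-155-5p in the order of changes. The rule asked for 3 on each side, but miR-155-5p ranked first, so none lay above it. Also named were the 5 most similar patterns, miRNAs sharing a seed, and markers of blood cells, serum, lymphocytes, epithelium, muscle and nerve. Replicate numbers were checked as pairs: same-numbered arrays deviated with r of −0.40, −0.22 and −0.28 across 198 miRNAs. Differently numbered arrays had r from −0.32 to 0.43. With 3 arrays per group these values constrain each other, so they cannot decide whether the numbers mark pairs. No pairing was used in the main fit. On simulated data for this comparison with 412 miRNAs the fit recovered 88% of log2 changes as small as 0.5 and 100% at sizes 1, 2 and 3, and called 6 of 212 unchanged miRNAs (2.83%). The simulated noise was independent for each miRNA, with no shift between arrays. It therefore does not give the rate of false calls on the real arrays, whose groups differed in overall signal. Alternatives covered scaling, background, probe summary, filter, floor, variance model, blocks and left-out replicates.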

Additional observations from a re-analysis of the deposited data

How the results depend on the processing

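The log2 change of miR-155-5p kept its direction and its call under all alternatives except the gene total signal, where it was −1.04. Under that setting the within-array ratios also reversed, with a median of −2.75 and values of −2.74 over miR-146a-5p, −2.75 over miR-21a-5p, −2.22 over miR-132-3p, −4.39 over miR-221-3p and −4.14 over miR-222-3p, but not over miR-146b-5p (0.75). With normexp the ratio over miR-221-3p was 0.0055 against 1.18, over miR-146a-5p 1.43 against 2.84, over miR-21a-5p 1.40 against 2.83 and over miR-132-3p 2.35 against 3.33, with a median of 1.26 against 2.13; in the value table those over miR-146a-5p and miR-21a-5p were 2.21 and 2.23. On the control arrays the gene totals of miR-155-5p were 37.4 to 45.0 times the sum of its probe totals. With a replicate block the change was 4.18 (adjusted p = 6.82e-06), with 270 miRNAs higher and 110 lower and the same call for 410 of 412 miRNAs and for all 27 named miRNAs tested; the ratios and the single-probe fits were not run with the block. The slide row was inferred from the position in each array's deposited name. All 3 controls and LPS 1 were in row 1, and LPS 2 and LPS 3 in row 2, so row and group largely coincide. With this row as a block the change of miR-155-5p was 4.15. Within the first row (LPS 1 against 3 controls, the lone array assumed to vary like the controls) it was 4.19. Leaving out 1 replicate gave 4.15 to 4.20 for miR-155-5p and its longer probe, 3.56 to 3.68 for the shorter probe, 2.08 to 2.18 for the median ratio, 0 for miR-155-3p, 264 to 272 miRNAs higher and 108 to 119 lower, and 10 Toll-like receptor guides higher. For single ratios it gave 3.27 to 3.40 (miR-132-3p), 2.79 to 2.91 (miR-146a-5p), 1.06 to 1.17 (miR-146b-5p), 2.77 to 2.92 (miR-21a-5p), 1.12 to 1.26 (miR-221-3p) and 1.40 to 1.47 (miR-222-3p). The count of miRNAs called lower, 110, was 59 with the percentile over all miRNAs, 39 with no scaling, 38 with spike-in scaling, 283 with normexp and 269 with no filter; the count called higher, 270, was 337 with the percentile over all miRNAs, 364 with no scaling, 370 with spike-in scaling, 113 with normexp, 115 when detection on every array was required, and 170 with the well-above-background call. The guides called higher, 10, were 6 with normexp and 6 when detection on every array was required, a filter that leaves 6 to test. miR-155-3p lay at the floor on every array (a change of 0), and gave −1.86 with normexp, −0.56 with the mean over probes, −0.60 with the sum of probe totals, −0.061 in the value table and −2.40 with the smallest positive value as floor, all from signal not above background. The log2 difference in the longer over the shorter 5p probe turned to −0.52 with the negative controls subtracted. Causes other than those shown by these values were not tested. The ratio of the arms was not run under any alternative, since miR-155-3p was not detected. Dim control signal is a limit: on control arrays the lowest signal well above background was 5.97 to 6.22 on the log2 scale, against 3.74 to 3.97 on LPS arrays, so the fold of miR-155-5p rests on control values close to that level.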
